A study of Mus musculus with 4 samples.

Results

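Chromatin loops at 8 genes of the G1 phase of the cell cycle were described in mouse uterus: the D-type cyclin genes Ccnd1, Ccnd2 and Ccnd3, the Cip/Kip inhibitor genes Cdkn1a and Cdkn1b, and the INK4 inhibitor genes Cdkn2a, Cdkn2b and Cdkn2c. A loop was assigned to a gene when either of its anchors overlapped the RefSeq gene body or the 10 kb on either side of it. By this rule 47 of the 59353 listed loops were at the 8 genes, out of 21631 protein-coding genes on the chromosomes that the lists cover. Hi-C, which reads out by ligation which stretches of DNA are neighbours in the nucleus, had been run on frozen whole uterus of C57BL/6J females older than 10 weeks. They had been ovariectomised 10 to 14 days before, and the uterus was collected 1 h after injection. The libraries were 1 of wild-type uterus given 1 mg of progesterone in sesame oil under the skin (replicate 2), 1 of uterus of the Ex3aERKO genotype, a knockout of the estrogen receptor ERα, given saline vehicle into the abdominal cavity, and 2 of wild-type uterus given that vehicle (replicates 2 and 3). Progesterone and vehicle thus differed in carrier and route as well, and the sources used here do not say whether a library came from 1 mouse or several. All mice lacked ovaries, and in whole tissue a loop cannot be traced to a cell type. Positions carry no expression level, so neither the tissue label nor the knockout could be checked against marker genes.

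D-type cyclins bind and activate the kinases Cdk4 and Cdk6, which phosphorylate the retinoblastoma protein and so release E2F transcription factors for entry into S phase. INK4 proteins bind Cdk4 and Cdk6 and keep D-type cyclins from activating them, while Cip/Kip proteins bind cyclin-kinase complexes, above all those with Cdk2. In the uterus, estrogen drives epithelial proliferation, with cyclin D1 among the responding proteins, and progesterone opposes that proliferation. A loop in a Hi-C map is a pair of positions that meet more often than their surroundings, often a pair of sites bound by CTCF and cohesin or a promoter and a distal element.

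The lists held 11752 loops after progesterone, 21829 in the knockout, and 16387 and 9385 in vehicle replicates 2 and 3. They give only the positions of anchors of 5, 10 or 25 kb. Depth and loop strength are unknown, and an unlisted loop is not shown to be absent. With 1 progesterone and 1 knockout library no test between conditions was made. All counts below are descriptions of these libraries.

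Ccnd1, Ccnd2, Ccnd3, Cdkn1a, Cdkn2a and Cdkn2b had loops in all 4 libraries, and Cdkn1b and Cdkn2c had a loop in the knockout list alone. Ccnd1 had 1 loop after progesterone and 3 in the knockout, against 2 and 1 in vehicle replicates 2 and 3. Ccnd2 had 2 and 5, against 2 and 2. Ccnd3 had 3 and 3, against 2 and 2. The highest counts of Ccnd1, Ccnd2 and Cdkn1a were in the knockout, the longest list, and Ccnd3 had as many loops there as after progesterone. Cdkn1a had 1 loop after progesterone and 4 in the knockout, against 3 and 1 in the vehicle replicates. The vehicle replicates themselves thus differed by 2 loops at this gene. Cdkn2a and Cdkn2b had 2 loops in each library, the same loops for both genes. Cdkn1b and Cdkn2c each had 0 after progesterone and 1 in the knockout, against 0 in both vehicle replicates.

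**Figure D1:**
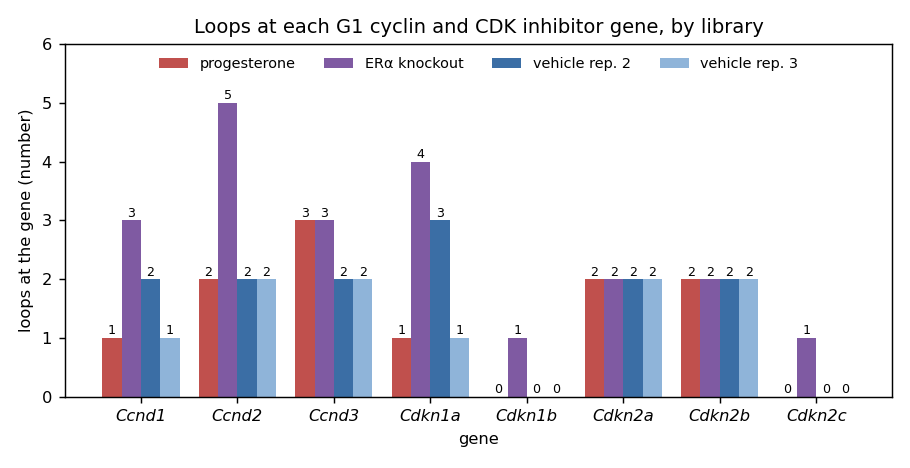
Number of loops (vertical axis) at each of the 8 genes (horizontal axis) in the progesterone, ERα knockout and vehicle replicate 2 and 3 lists, 1 bar per library. Ccnd2 reaches 5 loops in the knockout against 2 in each other list, and Cdkn1b and Cdkn2c have a bar in the knockout alone.

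Counted over genes, 6 of the 8 had a loop after progesterone and 8 in the knockout, against 6 in vehicle replicate 2 and 6 in vehicle replicate 3. Over all protein-coding genes the shares with a loop were 50.0% after progesterone, 65.1% in the knockout, 57.5% in vehicle replicate 2 and 45.3% in vehicle replicate 3. The median number of loops per gene was 1.5 and 2.5 for the 8 genes after progesterone and in the knockout, and 2 and 1.5 in the vehicle replicates, where all genes had medians of 1, 1, 1 and 0. The 8 genes had a median body of 9.82 kb, against 17.3 kb for all genes. Among the 14377 genes with bodies within the range of the members (4.74 to 94.6 kb), the shares with a loop were 52.7%, 70.7%, 61.6% and 47.3% in the same order. Ccnd3 alone set the upper end of that range, and the next longest member, Ccnd2, had 27.0 kb. The set is therefore not matched to the members on length. At least 1 vehicle replicate 2 loop matched in the other 3 lists was found at 6 of the 8 genes, against 33.8% of all genes. Of the 8, Cdkn2a and Cdkn2b share their loops and are not separate observations.

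Of the 16 other genes of the pathway, 9 had a loop after progesterone and 14 in the knockout, against 8 and 6 in vehicle replicates 2 and 3, and 6 had a loop matched in all 4 lists. These 6 were Cdk6, which encodes a partner kinase of the D-type cyclins, Cdkn1c, the third Cip/Kip gene, Rb1, the retinoblastoma gene, E2f2 and E2f3, and Cdc25a, which encodes a phosphatase that activates Cdk2. Cdk6 had 2 such loops, of 175 and 290 kb. Those of Cdkn1c, Rb1, E2f2, E2f3 and Cdc25a were 315, 195, 90, 130 and 180 kb long in vehicle replicate 2. Cdk4 had 0 loops after progesterone and 1 in the knockout, against 1 and 0 in the vehicle replicates. Cdk2, Ccne1, Rbl1, E2f1 and E2f4 had a loop in the knockout alone.

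**Figure D2:**
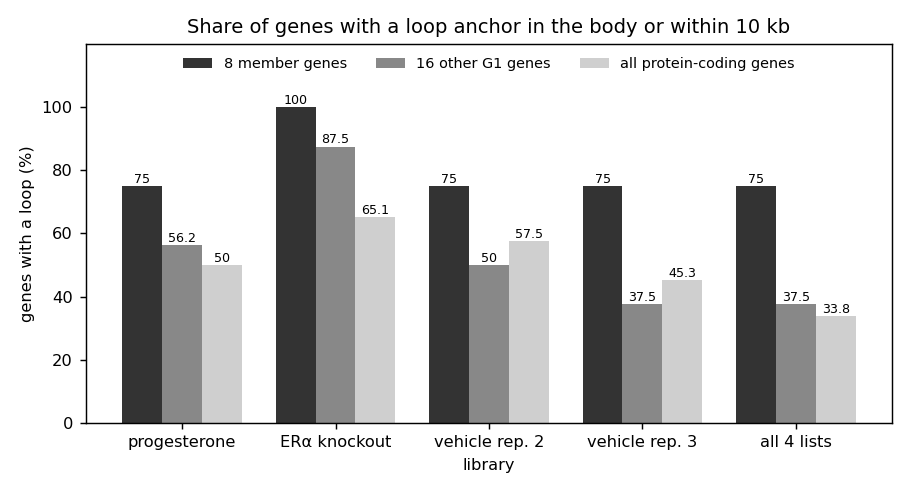
Percentage of genes (vertical axis) with a loop anchor in the gene body or within 10 kb of it, for the 8 genes, the 16 other G1 genes and all 21631 protein-coding genes, by library, with the share matched in all 4 lists at the right. The 8 genes reach 75% where all genes reach 50.0% after progesterone, 57.5% and 45.3% in the vehicle replicates and 33.8% in all 4 lists.

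Loops of different libraries counted as the same contact when both pairs of anchors overlapped once those of one list had been widened by 10 kb per side, and matches were linked across libraries. The 47 loops formed 22 contacts, of which 7 were in all 4 lists, 1 in 3 lists, 4 in 2 lists and 10 in a single list. The contacts in all 4 lists were 1 at Ccnd1, 2 at Ccnd2, 1 at Ccnd3, 1 at Cdkn1a and 2 at the Cdkn2a and Cdkn2b pair. The Ccnd2 contact of 210 to 230 kb was linked across all 4 only through vehicle replicate 3. Its vehicle replicate 2 loop had no direct match after progesterone or in the knockout. Of the 10 contacts in a single list, 9 were in the knockout, the longest list, and 1, at Cdkn1a, in vehicle replicate 2. Contacts were not counted over all loops. The contact counts are therefore not read as a trait of these genes, and the part of list length in them was not tested.

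**Figure D3:**
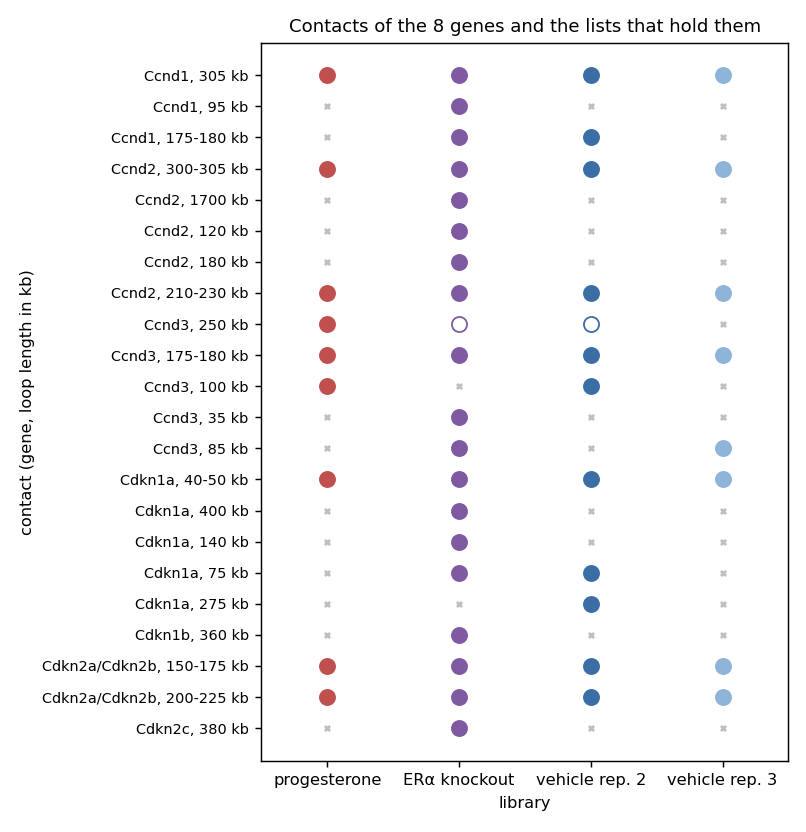
Each of the 22 contacts (rows, with gene and loop length in kb) against the 4 libraries (columns). Filled circles are loops at the gene, open circles are matching loops whose anchor lay outside the 10 kb window, and crosses are lists without a match. In 7 rows all columns are filled, and 9 rows are filled in the knockout column alone.

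Ccnd1 (chromosome 7, 144929931 to 144939831, mm10) was joined to the Tpcn2 gene, which encodes an ion channel of endolysosomes, by a 305 kb loop in every list. The loop ran from 144935001 to 144940000, over the higher-numbered end of the gene, to 145240001 to 145245000, and both 5 kb bins were identical in the progesterone, knockout and both vehicle lists. Only Smim38 lay wholly between the anchors. Apart from the loop itself, the Tpcn2 anchor had no loop after progesterone, 1 in the knockout and none in either vehicle replicate. Another contact reached a segment without protein-coding genes at 145110001 to 145120000. It was listed in the knockout (175 kb, 5 kb anchors) and in vehicle replicate 2 (180 kb, 10 kb anchors). It was not listed after progesterone or in vehicle replicate 3. A 95 kb loop to 145030001 to 145035000 was in the knockout list alone, with no loop of the other lists within 50 kb of both anchors. All 7 Ccnd1 loops pointed to higher positions, and Ccnd1 was the only member that no loop of any list enclosed, as was the case for 14.0% of all genes.

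Ccnd2 (chromosome 6, 127125162 to 127152188) had 5 loops in the knockout, the highest count of any of the 8 genes in any list, and 2 in each other list, and its partners all lay at higher positions. A loop from 127145001 to 127150000, inside the gene, reached Parp11, a mono-ADP-ribosyltransferase gene, at 127445001 to 127450000 after progesterone and in both vehicle replicates (300 kb), and at 127450001 to 127455000 in the knockout (305 kb). No protein-coding gene lay wholly between these anchors. A longer loop of 510 to 525 kb enclosed Ccnd2 in all 4 lists, and its higher anchor began at 127450001, also at Parp11.

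A second Ccnd2 contact ended in the interval without protein-coding genes before Parp11, and its position differed between libraries. The partner was at 127370001 to 127380000 after progesterone and at 127375001 to 127380000 in the knockout, against 127355001 to 127360000 in vehicle replicate 2 and a 25 kb bin, 127350001 to 127375000, in vehicle replicate 3. The progesterone and knockout ends both matched the wide vehicle replicate 3 bin but not the vehicle replicate 2 bin. This loop of vehicle replicate 2 was the only one at the 8 genes to be in both vehicle lists and unmatched after progesterone, and likewise the only one unmatched in the knockout. It was matched in both when the anchors of both lists were widened by 10 kb. Ccnd2 had 3 further loops in the knockout alone. Their partners were at 127265001 to 127270000 (120 kb), 127330001 to 127335000 (180 kb) and, 1700 kb away in 25 kb bins, at 128825001 to 128850000 over Klrb1b and BC035044. The 180 kb loop had loops of all 3 other lists within 50 kb of both anchors, and the 120 and 1700 kb loops had none. Among all genes, 10.9% had 5 or more loops in the knockout list.

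Ccnd3 (chromosome 17, 47505051 to 47599689), the longest gene of the 8, had a 5 kb anchor at 47510001 to 47515000, inside the body and beyond its first start, in all 4 lists. From there or from the 25 kb bin around it a contact of 175 to 180 kb reached the neighbouring genes Frs3 and Prickle4 in all 4 lists, with partners at 47675001 to 47700000 after progesterone and 47685001 to 47690000 in the knockout, against 47690001 to 47695000 and 47675001 to 47700000 in vehicle replicates 2 and 3. The partner anchors after progesterone, in the knockout and in vehicle replicate 3 also overlapped Gm20517, Usp49 and Tomm6. The shorter Ccnd3 contacts went by library in another way. A 100 kb loop to 47610001 to 47615000, over Bysl, Gm20517 and Med20, was listed after progesterone and in vehicle replicate 2. An 85 kb loop to 47595001 to 47600000, at the far end of Ccnd3 itself, was listed in the knockout and in vehicle replicate 3. Its partner anchor also overlapped Bysl. Ccnd3 has a second RefSeq start at 47593467, close to this anchor but outside it. These ends are 10 kb apart, and each such loop had loops of all 3 other lists within 50 kb of both anchors. A 35 kb loop inside Ccnd3 was in the knockout alone. The 250 kb progesterone loop ran from 47600001 to 47625000, beyond the gene body, down to Trerf1 and Mrps10. It was matched by 245 kb loops of the knockout and vehicle replicate 2, whose anchors lay just outside the 10 kb window. With gene bodies alone, Ccnd3 had 2 loops after progesterone and 3 in the knockout, against 2 and 2 in the vehicle replicates.

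**Figure D4:**
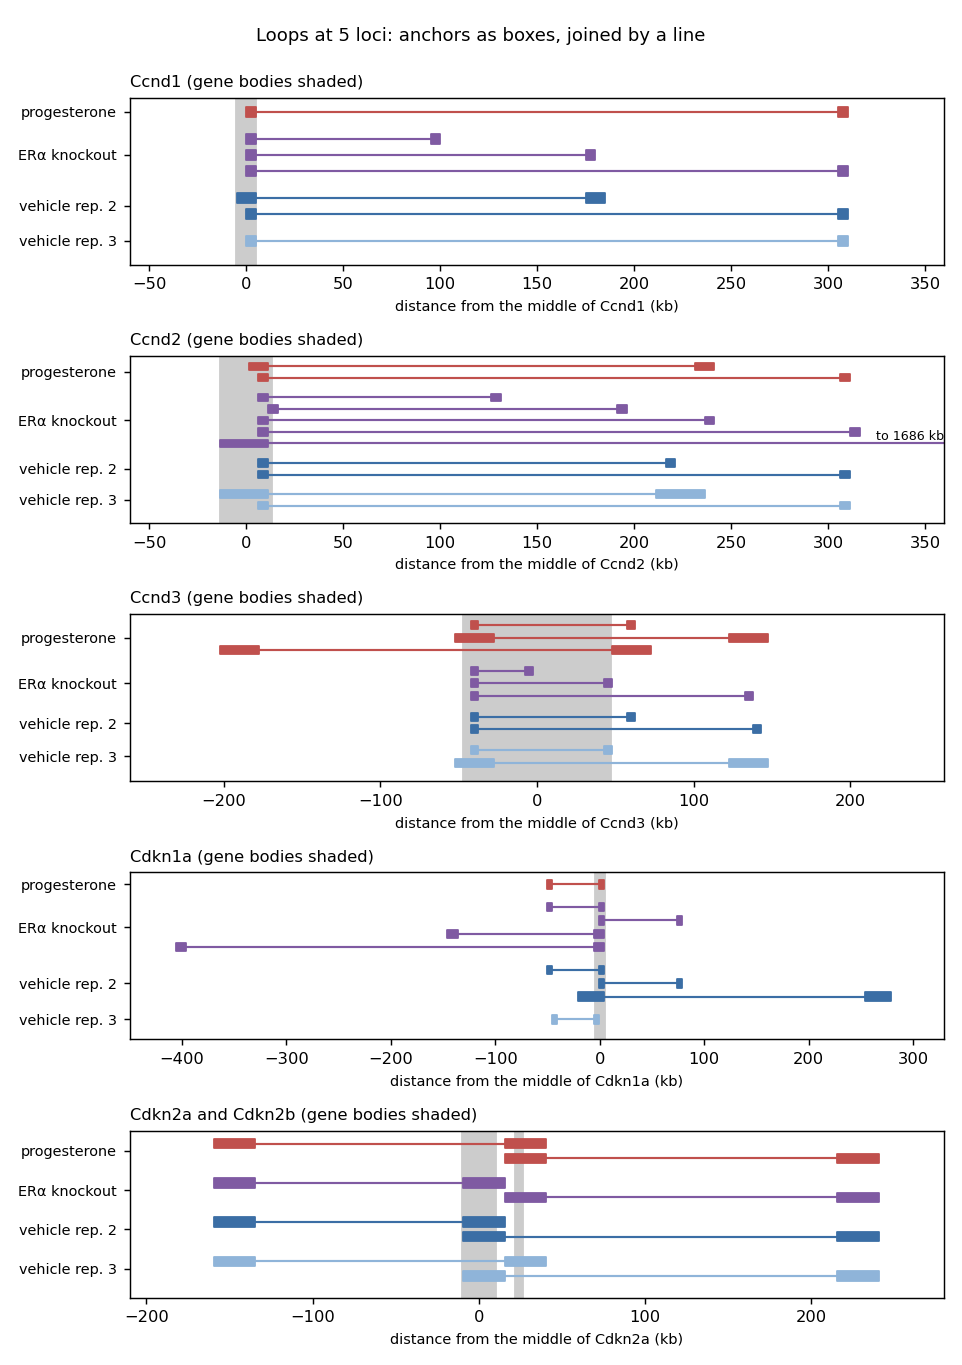
Loops at Ccnd1, Ccnd2, Ccnd3, Cdkn1a and the Cdkn2a and Cdkn2b pair, drawn to scale by distance in kb from the middle of the gene (horizontal axis), with anchors as boxes joined by a line, libraries as rows and gene bodies shaded. The 305 kb Ccnd1 loop and the 300 to 305 kb Ccnd2 loop recur in every library, and the 1700 kb Ccnd2 loop of the knockout runs past the right edge.

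Cdkn1a (chromosome 17, 29090979 to 29100722) encodes p21, the inhibitor induced by p53, and lay at a short contact present in every list. The loop joined 29045001 to 29050000, where no protein-coding gene lies, with 29095001 to 29100000 inside the gene after progesterone, in the knockout and in vehicle replicate 2 (50 kb), and 29050001 to 29055000 with 29090001 to 29095000 in vehicle replicate 3 (40 kb). A 75 kb loop on the other side, to Cpne5 at 29170001 to 29175000, was listed in the knockout and in vehicle replicate 2 and not after progesterone or in vehicle replicate 3. A loop of 125 to 130 kb between the outer ends of these contacts enclosed Cdkn1a in all 4 lists. The knockout alone also had a 140 kb loop to Kctd20 and a 400 kb loop to Slc26a8 and to Mapk14, which encodes a p38 kinase. Vehicle replicate 2 alone had a 275 kb loop to Fgd2 in 25 kb bins.

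Cdkn1b (chromosome 6, 134920401 to 134925525), the gene of p27, sat inside a small loop rather than at its anchor. A 50 kb loop around it joined 134895001 to 134900000 with 134945001 to 134950000 after progesterone, in the knockout and in vehicle replicate 2, and was matched by a loop in 10 kb bins in vehicle replicate 3. In the 3 wild-type lists the nearest anchor of any loop lay 14.5 to 19.5 kb from the gene. With a window of 25 kb Cdkn1b had 2 loops after progesterone and 5 in the knockout, against 3 and 2 in the vehicle replicates. The loop at the gene was listed in the knockout alone. It joined 134920001 to 134930000 with Lrp6, a Wnt co-receptor gene, at 134560001 to 134570000, 360 kb away, and no loop of another list lay within 50 kb of both anchors.

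Cdkn2a, which encodes p16INK4a and p19ARF, and Cdkn2b, which encodes p15INK4b, are 11.7 kb apart (chromosome 4, 89274473 to 89294619 and 89306289 to 89311032) and their loops could not be divided between them. Each list had a contact with Mtap, the gene of a methionine salvage enzyme, at 89125001 to 89150000. Each also had one with the bin 89500001 to 89525000, which holds no protein-coding gene. All were in 25 kb bins. The bin boundary at 89300001 falls between both genes. The Mtap contact ended in the Cdkn2b bin after progesterone and in the Cdkn2a bin in the knockout, against the Cdkn2a bin in vehicle replicate 2 and the Cdkn2b bin in vehicle replicate 3. The other contact ended in the Cdkn2b bin after progesterone and in the knockout, and in the Cdkn2a bin in both vehicle replicates. These shifts are of 1 bin, the size at which the vehicle replicates differed from each other at the Mtap contact. With gene bodies alone, Cdkn2a had 0 loops after progesterone and 1 in the knockout, against 2 and 1 in the vehicle replicates, and Cdkn2b had 2 and 1, against 0 and 1. A loop of 375 to 380 kb in 5 kb bins, from 89145001 to 89150000 to about 89520001, enclosed both genes in all 4 lists.

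Cdkn2c (chromosome 4, 109660876 to 109666756), the gene of p18INK4c, was like Cdkn1b in lying inside a loop. A loop of 125 to 130 kb from about 109570001 to 109700001 enclosed it in all 4 lists, and its nearest anchor in each wild-type list was 33.2 kb away. The knockout alone had a loop at the gene, 380 kb long, from 109660001 to 109670000 to Eps15, an endocytic adaptor gene, at 109280001 to 109290000. No loop of another list was within 50 kb of both of its anchors.

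Promoter sequence is shown for the inhibitor genes, at 1 start each, since their starts lay in an anchor of some lists and not of others, and for Ccnd3, whose 5 kb anchor lay beyond its first start. Each is the 250 bases upstream of a RefSeq start, GRCm38.p6, written 5′ to 3′ on the strand of the gene, and capitals mark Sp1 GC boxes and E2F elements on either strand.
Ccnd3, chr17:47504801-47505050, plus strand: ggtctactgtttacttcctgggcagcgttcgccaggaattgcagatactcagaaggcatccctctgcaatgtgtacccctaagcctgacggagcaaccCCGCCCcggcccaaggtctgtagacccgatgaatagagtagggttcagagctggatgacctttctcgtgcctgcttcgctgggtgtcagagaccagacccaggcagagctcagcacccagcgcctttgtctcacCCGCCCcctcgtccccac
Cdkn1a, chr17:29093519-29093768, plus strand: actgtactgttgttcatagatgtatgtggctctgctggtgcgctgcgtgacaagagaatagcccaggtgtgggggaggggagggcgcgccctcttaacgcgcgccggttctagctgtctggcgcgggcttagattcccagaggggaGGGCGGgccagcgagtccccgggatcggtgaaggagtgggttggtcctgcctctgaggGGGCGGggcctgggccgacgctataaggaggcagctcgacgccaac
Cdkn1b, chr6:134920151-134920400, plus strand: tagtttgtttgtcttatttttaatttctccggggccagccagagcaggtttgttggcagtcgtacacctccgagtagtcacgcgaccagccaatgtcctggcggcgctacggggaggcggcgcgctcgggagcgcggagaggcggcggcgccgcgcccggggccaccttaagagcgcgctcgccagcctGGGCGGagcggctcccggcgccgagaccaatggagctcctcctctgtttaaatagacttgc
Cdkn2a, chr4:89294620-89294869, minus strand: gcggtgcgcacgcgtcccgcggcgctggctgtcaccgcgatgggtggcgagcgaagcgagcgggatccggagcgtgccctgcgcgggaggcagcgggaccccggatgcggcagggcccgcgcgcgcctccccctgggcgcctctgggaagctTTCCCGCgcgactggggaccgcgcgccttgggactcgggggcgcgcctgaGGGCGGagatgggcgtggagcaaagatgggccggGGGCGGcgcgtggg
Cdkn2b, chr4:89311033-89311282, minus strand: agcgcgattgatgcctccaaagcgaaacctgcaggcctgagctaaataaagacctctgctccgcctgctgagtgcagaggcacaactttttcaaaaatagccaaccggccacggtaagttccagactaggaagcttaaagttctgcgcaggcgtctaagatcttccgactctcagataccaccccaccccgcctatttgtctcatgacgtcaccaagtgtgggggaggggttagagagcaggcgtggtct
Cdkn2c, chr4:109666757-109667006, minus strand: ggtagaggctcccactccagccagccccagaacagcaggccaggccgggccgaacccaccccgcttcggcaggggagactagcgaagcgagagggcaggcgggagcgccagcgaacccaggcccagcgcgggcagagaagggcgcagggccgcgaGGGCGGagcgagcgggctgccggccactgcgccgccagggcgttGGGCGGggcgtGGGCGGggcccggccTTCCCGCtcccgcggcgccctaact

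The table of promoters held 10 windows of 6 members, and Ccnd1 and Ccnd2 were not among them. The Cdkn1a window shown was covered by no anchor after progesterone and by 10 kb anchors of 2 loops in the knockout, against a 25 kb anchor in vehicle replicate 2 and a 5 kb anchor in vehicle replicate 3. The Cdkn1b and Cdkn2c windows were covered in the knockout alone, by 10 kb anchors. The Cdkn2a window was covered by no anchor after progesterone and by a 25 kb anchor of 1 loop in the knockout, against 2 and 1 in the vehicle replicates. The Cdkn2b window was covered by 25 kb anchors of 2 loops after progesterone and 1 in the knockout, against 0 and 1 in the vehicle replicates. The Ccnd3 window was covered by 25 kb anchors after progesterone and in vehicle replicate 3, and never by a 5 kb anchor. GC boxes (GGGCGG on either strand) were present in 6 of the 10 windows and in 32.7% of the 32851 windows of all genes. E2F elements (TTCCCGC on either strand) were in 2 of the 10 windows, those shown for Cdkn2a and Cdkn2c, and in 3.82% of all. Cdkn1a, Cdkn2a and Cdkn2c each had another window, not shown, upstream of starts at 29090979, 89282192 and 109665372. None of those windows held a GC box or an E2F element. The sources used here do not say which Cdkn2a start serves p16INK4a and which p19ARF. The Cdkn2a elements are therefore assigned to neither product. The estrogen response element, GGTCA and TGACC with 3 bases between, and the progesterone response element, GNACA and TGTNC with 3 bases between, matched none of the 10 and 0.0639% and 0.387% of all windows, which says only that these letters are not in these windows.

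Set against both vehicle lists, every progesterone loop at these genes had a match in at least 1 of them, while 9 knockout loops had none. Of the 9 loops after progesterone, 0 lacked a vehicle match (exact binomial 95% interval 0 to 33.6%), against 14.8% of all loops in that list. No member had such a loop, against 5 of the 16 other G1 genes and 12.7% of all genes. Of the 7 vehicle replicate 2 loops also in vehicle replicate 3, 1 was unmatched after progesterone (14.3%, 0.361 to 57.9), against 15.1% of all such loops, and the gene concerned was Ccnd2, against 9.64% of all genes. The intervals contain the values over all loops. They count loops with a shared anchor as separate observations and leave out the spread between libraries. A departure from the values over all loops was therefore not tested. Without vehicle replicate 2, 2 progesterone loops were in no vehicle list.

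Of the 19 loops at these genes in the knockout, 9 had no vehicle match (47.4%, 24.4 to 71.1), against 40.6% of all loops in that list. They lay at 6 of the 8 genes, Ccnd1, Ccnd2, Ccnd3, Cdkn1a, Cdkn1b and Cdkn2c. Such a loop was found at 14 of the 16 other G1 genes and at 44.2% of all genes. None of the 9 was in the progesterone list, 7 had no loop of any wild-type list within 50 kb of both anchors, and their lengths were 35 to 1700 kb with a median of 180 kb. Their anchors were of 5 kb in 4 loops, 10 kb in 4 and 25 kb in 1. Progesterone matches and loops within 50 kb were not counted for all knockout loops without a vehicle match. Those counts are therefore not read as a trait of the 8 genes. A loop in the knockout and none in any wild-type list was found for 2 of the 8 genes. The same held for 5 of the 16 other G1 genes and 7.53% of all genes. In the other direction 1 of the 7 loops in both vehicle lists was unmatched in the knockout, at Ccnd2, against 10.0% of all such loops and 6.47% of all genes. The knockout list was also the longest, with 64.8% of its loops in 5 kb bins, against 58.7% and 42.1% in the vehicle replicates, and the part of list length in these counts was not tested.

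The vehicle replicates gave the spread between libraries of one group. Of the 11 loops at the 8 genes in vehicle replicate 2, 7 were in vehicle replicate 3 (63.6%, 30.8 to 89.1), against 49.2% of all its loops. Of the 8 loops in vehicle replicate 3, 7 were in vehicle replicate 2 (87.5%, 47.3 to 99.7), against 85.7% of all its loops. All 8 were in the knockout (63.1 to 100%), against 85.0% of all its loops. The loop of vehicle replicate 3 without a match in vehicle replicate 2 was the 85 kb Ccnd3 loop. The median length of loops at the 8 genes was 200 kb after progesterone and 175 kb in the knockout, against 180 and 200 kb in the vehicle replicates, and all loops had medians of 190, 150, 185 and 200 kb in the same order. The partner anchor held no protein-coding gene in 3 of 9 loops after progesterone and 7 of 19 in the knockout, against 4 of 11 and 3 of 8 in the vehicle replicates, where 38.4%, 35.2%, 38.2% and 38.4% of all anchors held none.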

How the data were processed

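The deposited tables hold anchor positions of each loop and no other value. The submitters' processing notes name mm10 and Juicer 1.5.6. The sources used here do not name a loop caller or thresholds. Starts count from 0 in the files and from 1 here.

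Gene bodies came from RefSeq (GRCm38.p6, the assembly of mm10; 21631 protein-coding genes on the chromosomes listed), in which all 8 members and 16 other G1 genes matched. Libraries were grouped by title and genotype. A loop matched another list when both of its anchors, widened by 10 kb per side, overlapped those of a loop there. On 16387 loops of vehicle replicate 2, checked on simulated data, this step found 100% of loops left in place and 0% of those moved away. That check cannot show how the step handles a shift of 1 bin or a change of bin size. Intervals are exact (Clopper-Pearson) and cover counting error only. Named were all members, genes in partner anchors, and other G1 genes with loops in all 4 lists or in the knockout alone. Cdk4, and Smim38 between Ccnd1 anchors, were named outside this rule. The members, lists and settings were chosen with earlier results of these data known. Alternatives changed the gene window, bin size, loop length, matching rule and vehicle replicates. Python 3.11.15, numpy 2.4.6, pandas 2.3.3, scipy 1.17.1 and matplotlib 3.10.9 were used.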

Additional observations from a re-analysis of the deposited data

How the results depend on the processing

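Depth and loop strength are unknown, progesterone and the knockout have 1 library each, and a shift of 1 bin can make or break a match. With a 25 kb gene window vehicle replicate 2 had 17 loops at the 8 genes in place of 11, and the other totals per library stayed within 1.5 times. For single genes that window moved Cdkn1b, as given above, and Ccnd3, to 5 loops in the knockout and 4 in vehicle replicate 2, in place of 3 and 2. With 5 kb anchors alone, loops numbered 4 after progesterone and 12 in the knockout, against 7 and 4 in vehicle replicates 2 and 3, 4 genes had a knockout loop, 3 loops were shared by the vehicle replicates, and 0 shared loops were unmatched after progesterone or in the knockout. With 10 kb anchors alone, 1 loop at 1 gene was left after progesterone, 4 loops at 3 genes in the knockout, 1 loop at 1 gene in vehicle replicate 2 and 0 in vehicle replicate 3. All of the 1 progesterone and 4 knockout loops were then in neither vehicle list, and 0 loops were shared by the vehicle replicates, so 0 were unmatched. With 0 kb added for matching, the vehicle replicates shared 5 loops, of which 2 were unmatched after progesterone and 4 in the knockout. Then 1 progesterone loop and 12 knockout loops were in neither vehicle list. With 25 kb added, with midpoints within 25 kb, or with 10 kb added to both lists (chosen after the data were seen), 0 shared vehicle loops were unmatched in either. Knockout loops in neither vehicle list then numbered 8 in each case. Leaving out a vehicle replicate in turn, 1 to 4 vehicle loops were unmatched after progesterone and 0 to 3 in the knockout, 1 to 2 progesterone loops were in no vehicle list, and the count of 9 knockout loops became 11 in both cases. Counts per library without Cdkn2a and Cdkn2b, or without Ccnd3, also chosen after the data were seen, stayed within 1.5 times of those given. No paired analysis was possible because the groups share only replicate number 2.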
